A study of Nothobranchius furzeri with 10 samples.

Results

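The 100 most abundant transcripts of the killifish liver are described here. The genes were chosen by their mean normalized count over all 10 libraries, that is, the read count divided by the library's DESeq2 median-of-ratios size factor, and the 100 highest of the 26739 genes in the table were kept. The turquoise killifish (Nothobranchius furzeri) is a short-lived fish used in ageing research. All livers came from male fish aged 27 weeks (strain MZM-0410p), with 5 libraries labelled rotenone 15 pM and 5 labelled DMSO. Rotenone blocks respiratory complex I in mitochondria, and DMSO is a solvent used here as the control. Route and duration of treatment are not in the labels, and neither is whether every library is a different fish. The p-values therefore set the difference between groups only against the spread between these libraries, and that spread may be technical.

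In vertebrate liver, hepatocytes make most of the proteins of blood plasma, such as albumin-type carriers, apolipoproteins, clotting factors and complement, and they also carry out much of the body's lipid, sugar and amino acid metabolism. A small number of genes for such proteins usually takes a large part of the messenger RNA, beside genes that every cell uses, such as those for ribosomal proteins. Which of these classes the 100 genes belong to is not analysed here, because the files give gene IDs without names and none of the IDs (0 of 26739) matched the RefSeq gene table at hand (assembly NfurGRZ-RIMD1). For the same reason the labelled tissue was not checked against liver markers or markers of other tissues, and the genes are called by their abundance rank, with 4 of them also given by ID. In bulk tissue, fewer cells of a type and less RNA per cell cannot be told apart.

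Together the 100 genes took between 36.7% and 52.9% of all counts of a library. Their share was 46.5, 42.5, 40.9, 52.9 and 51.6% in rotenone replicates 1 to 5, against 43.9, 49.9, 43.3, 36.7 and 44.3% in DMSO replicates 1 to 5. Rotenone replicates 4 and 5 and DMSO replicate 2 were the high libraries, DMSO replicate 4 was the lowest, and the groups overlapped over most of their range. The means were 46.9 ± 5.34% in rotenone and 43.6 ± 4.68% in DMSO livers (SD, n = 5 each), a difference of 3.27 percentage points that is smaller than either SD. It was 1.76 points without rotenone replicate 4 and 1.54 points without DMSO replicate 4. No test is given for a sum over genes chosen by their level.

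**Figure D1:**
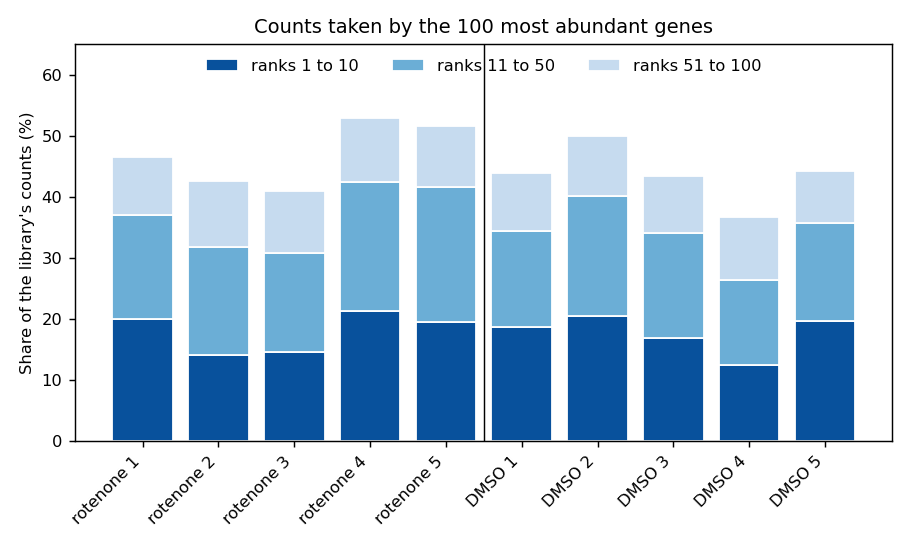
Share of each library's counts (%, vertical axis) taken by ranks 1 to 10, 11 to 50 and 51 to 100, stacked, in the 5 rotenone libraries (left) and the 5 DMSO libraries (right of the line). The total runs from 36.7% in DMSO replicate 4 to 52.9% in rotenone replicate 4, and the top segment differs least between libraries.

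The share was unevenly divided within the 100 genes, and its spread between libraries of a group lay mainly in ranks 1 to 50. Ranks 1 to 10 took 17.9 ± 3.28% of counts in rotenone and 17.6 ± 3.19% in DMSO livers. The 40 genes of ranks 11 to 50 took 18.8 ± 2.64% in rotenone and 16.5 ± 2.08% in DMSO livers. The 50 genes of ranks 51 to 100 took 10.2 ± 0.489% in rotenone and 9.504 ± 0.648% in DMSO livers (SD, n = 5 each for all 3 blocks). The difference between group means, rotenone minus DMSO, was 2.28 points for ranks 11 to 50 and 0.703 points for ranks 51 to 100. The difference for ranks 1 to 10, 0.288 points, changed sign without DMSO replicate 4 (−1.003) and without rotenone replicates 1, 4 or 5 (−0.224, −0.551 and −0.122).

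The number of genes needed to reach 50% of the counts differed strongly between libraries. It was 126, 147, 162, 82 and 85 genes in rotenone replicates 1 to 5, and 150, 97, 160, 196 and 148 genes in DMSO replicates 1 to 5. The 100 genes ranking next took 11.1 ± 0.727% of counts in rotenone and 10.1 ± 1.16% in DMSO livers (SD, n = 5 each). Depth was high for all members. Library totals ran from 29162530 to 41902929 counts, and the lowest count of a member in a library was 11282, for which counting error alone is 0.941%.

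The first gene kept its place in nearly every library. Rank 1, a gene of 6210 bp, took 4.95% of counts on average, from 3.41% to 7.22% over the libraries. Values are given in kilocounts, units of 1000 normalized counts, and rank 1 had 1905, 1481, 1225, 1883 and 1826 in rotenone replicates 1 to 5, against 1833, 2874, 1288, 1039 and 2031 in DMSO replicates 1 to 5. It was the first gene in 9 of 10 libraries and the second in rotenone replicate 4, and both ends of its range lay in DMSO livers. The log2 fold change of rotenone over DMSO was −0.12 (SE 0.28, edgeR adjusted p = 0.839).

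Rank 2, a gene of 783 bp, took 3.07% of counts on average and stood first in rotenone replicate 4. It had 1096, 951, 835, 1893 and 1303 kilocounts in rotenone replicates 1 to 5, against 801, 1098, 994, 799 and 1114 kilocounts in DMSO replicates 1 to 5. Rotenone replicates 4 and 5 lay above all DMSO libraries and the other 3 within their range, and the log2 fold change was 0.34 (SE 0.25, edgeR adjusted p = 0.444). Rank 3 spanned 4.12-fold over the 10 libraries, with the same top (1020 kilocounts) in rotenone replicate 4 and DMSO replicate 2. It averaged 671 ± 262 kilocounts in rotenone and 618 ± 292 kilocounts in DMSO livers (SD, n = 5 each).

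Ranks 4, 5 and 8 had higher means in rotenone livers and did not pass the adjusted threshold by edgeR. Rank 4 averaged 590 ± 188 kilocounts in rotenone and 362 ± 104 kilocounts in DMSO livers, with log2 fold change 0.71 (SE 0.27, edgeR adjusted p = 0.161). For rank 5 the means were 568 ± 185 kilocounts in rotenone and 370 ± 33.2 kilocounts in DMSO livers (SD, n = 5 each), with a DMSO range of only 1.25-fold. Rank 8, at 699 bp among the shortest, had 518, 428, 384, 756 and 465 kilocounts in rotenone replicates 1 to 5, against 267, 374, 353, 285 and 247 kilocounts in DMSO replicates 1 to 5. Every rotenone value of rank 8 lay above every DMSO value, the nearest pair being 384 and 374 kilocounts. Its log2 fold change was 0.74 (SE 0.23, edgeR adjusted p = 0.109), and DESeq2 called it higher (adjusted p = 0.0153).

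The other genes of the first 10 differed in how far they spread. Rank 7 spanned 1.98-fold and rank 10 spanned 1.63-fold over all 10 libraries, among the narrow ranges of the set. Rank 9 spanned 8.31-fold, with 737 kilocounts in rotenone replicates 4 and 5 each and 88.7 kilocounts in DMSO replicate 4. Rank 6 is the widest of all 100 and is described with the variable genes. In the group means, ranks 1, 2 and 3 held the same places in rotenone and DMSO livers.

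**Figure D2:**
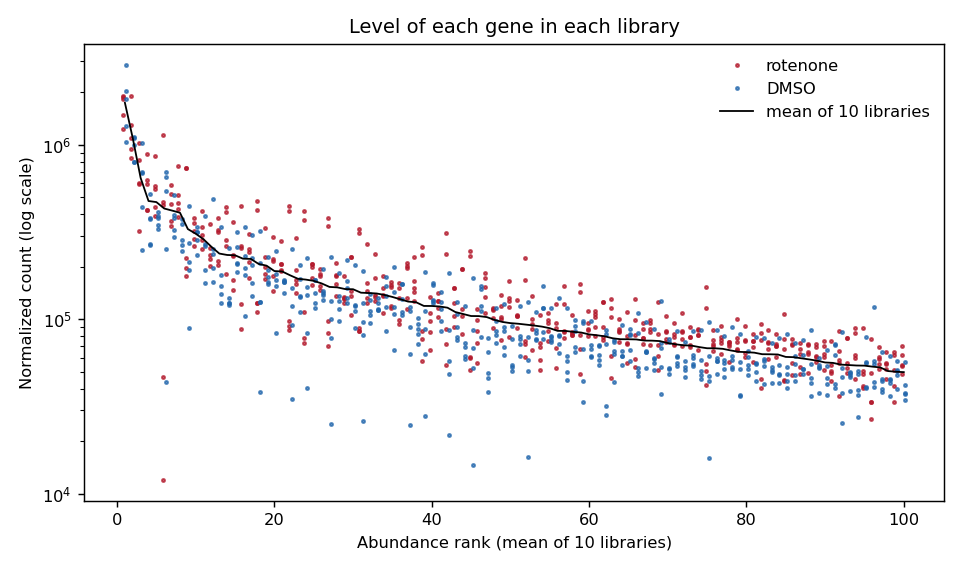
Normalized count (vertical axis, log scale) of each of the 100 genes in each library, by abundance rank (horizontal axis). Rotenone libraries are red and plotted slightly left, DMSO libraries blue, and the line is the mean over 10 libraries. Means fall from 1739 kilocounts at rank 1 to 49.8 kilocounts at rank 100, and the lowest point is rank 6 in rotenone replicate 2, at 12.0 kilocounts.

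Mean normalized counts fell 5.62-fold over ranks 1 to 10 and 34.9-fold over ranks 1 to 100, and 8 genes each took over 1% of counts on average. The limit of the list cut through a smooth slope. Ranks 98, 99 and 100 had means of 50.5, 50.01 and 49.8 kilocounts, and both genes just outside it had 49.3 kilocounts. Counts rise with gene length, so this is an order by share of reads and not by number of transcripts.

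Per length, the order changed considerably. Lengths, recovered from the ratio of deposited counts and RPKM, ran from 429 to 11777 bp with a median of 2094 bp (2770 bp over all 16922 genes tested). Of the 100 genes, 19 were shorter than 1000 bp and 48 shorter than 2000 bp. By mean RPKM, recomputed with each library's own total, 54 of the 100 stayed among the 100 highest genes, and the highest 100 by RPKM had a median length of 730 bp. On this scale rank 2 came first with a mean of 39223 RPKM, followed by rank 8 with 16382 RPKM, rank 17 with 10086 RPKM, rank 9 with 8494 RPKM and only then rank 1 with 7963 RPKM. At the other end, rank 95, a gene of 8803 bp, fell to place 386 by RPKM. The share of summed RPKM held by the 100 genes was 44.4 ± 5.02% in rotenone and 41.4 ± 4.66% in DMSO livers (SD, n = 5 each), close to their share of counts.

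Membership itself was stable in most libraries. In its own order, each library held 94, 88, 91, 92 and 90 of the 100 genes among its 100 highest in rotenone replicates 1 to 5, and 94, 88, 94, 76 and 90 in DMSO replicates 1 to 5. DMSO replicate 4 stands below the others. Of the 100 genes, 57 were in the first 100 of all 10 libraries, 21 in 9 libraries, 19 in 5 to 8 libraries and 3 in fewer than 5 (ranks 95, 98 and 100). All but 10 genes (90 of 100) stayed within the first 200 of every library, and the lowest place was 378, for rank 6 in rotenone replicate 2. Over all libraries 160 genes reached a first 100 at least once. With the median in place of the mean 98 genes were shared, and with the mean over DMSO libraries alone or rotenone libraries alone 95 each.

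Between the group means, 62 of the 100 genes moved by at most 10 places. The largest move, 66 places, was that of rank 96, which stood at 137 in rotenone and 71 in DMSO livers. Rank 47 moved by 52 places, to 36 in rotenone against 88 in DMSO livers. Rank 54 moved by 42 places the other way, to 81 in rotenone against 39 in DMSO livers.

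Most of the 100 genes varied between libraries by about 2-fold, and a minority varied far more. Over all 10 libraries the highest value exceeded the lowest by a median of 2.35-fold (quartiles 1.92 and 3.30). For 32 genes the range was under 2-fold, for 14 it was at least 5-fold and for 9 at least 10-fold. Without DMSO replicate 4 these last counts were 6 and 1. Since single high libraries raise a mean, a choice by mean can favour genes with a wide range. With the 100 genes chosen by median instead, the median range was 2.33-fold. As 98 genes were shared by both choices, a similar value was fixed in advance and does not test this. Within a group the median range was 1.79-fold over the 5 rotenone libraries and 1.82-fold over the 5 DMSO libraries, and the median SD of the log2 value was 0.34 in rotenone and 0.33 in DMSO livers. The rotenone SD was the larger for 41 of the 100 genes. Ranges were wider in the upper ranks, with a median of 2.99-fold for ranks 1 to 25 and 1.96-fold for ranks 76 to 100. The next 100 genes had medians of 1.56-fold within rotenone and 1.84-fold within DMSO livers. Over all 10 libraries their median was 2.19-fold, leaving out 1 gene with a count of 0 in a library. The range was under 2-fold for 38 of them, at least 5-fold for 18 and at least 10-fold for 9. Without DMSO replicate 4 it was at least 5-fold for 14 of them and at least 10-fold for 3. A wide range was therefore not particular to the 100 most abundant genes.

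**Figure D3:**
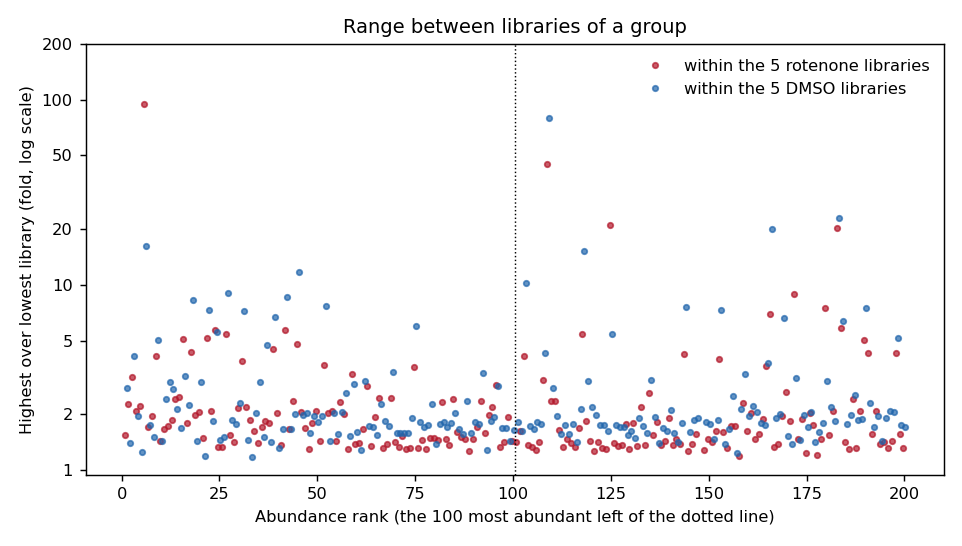
Highest over lowest library within the 5 rotenone libraries (red) and within the 5 DMSO libraries (blue), on a log axis, for the 100 most abundant genes and the 100 next ones by rank (right of the dotted line). A gene of the next 100 with no count in a library is left out. The medians of the 100 genes are 1.79-fold and 1.82-fold, and rank 6 reaches 94.8-fold within rotenone and 16.1-fold within DMSO livers.

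Rank 6, a gene of 4361 bp, had the widest range. It had 469, 12.0, 46.9, 449 and 1135 kilocounts in rotenone replicates 1 to 5, against 657, 700, 253, 43.4 and 544 kilocounts in DMSO replicates 1 to 5. Rotenone replicates 2 and 3 and DMSO replicate 4 were low and the other 7 high, so each group held both. It took between 0.0351% and 2.67% of a library's counts, and its log2 fold change of −0.05 has an SE of 0.98 (edgeR adjusted p = 0.981), a difference that could not be resolved at this spread.

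The 8 other genes with a range of at least 10-fold shared a pattern. All 8 had their lowest library in DMSO replicate 4, and 7 had their highest in rotenone replicate 5, with the eighth highest in rotenone replicate 4. Their summed share of counts was 2.00, 1.81, 2.11, 5.70 and 6.62% in rotenone replicates 1 to 5, against 2.47, 4.26, 3.51, 0.713 and 1.88% in DMSO replicates 1 to 5. Rotenone replicates 4 and 5 stood together well above the other 3 rotenone libraries, which lay within the DMSO range. Their ranks ran from 18 to 52 and their lengths from 762 to 4076 bp. Without DMSO replicate 4, rank 6 was the only gene of the 100 with a range of at least 10-fold.

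Rank 45, with the widest range of these 8 (16.8-fold), had 51.5, 59.99, 61.0, 229 and 247 kilocounts in rotenone replicates 1 to 5, against 68.7, 172, 86.7, 14.7 and 52.5 kilocounts in DMSO replicates 1 to 5. Ranks 27, 42 and 52 spanned 15.2-, 14.5- and 13.8-fold with the same libraries at both ends. The log2 fold changes of the 8 genes lay between 0.62 and 0.94, and the lowest edgeR adjusted p among them was 0.343. All of them were placed in this class for their spread over the same libraries, so the co-variation is a description and was not tested.

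Split by range, the 14 genes of at least 5-fold took between 1.71% and 13.1% of counts, and the other 86 took between 35.0% and 42.3%, a contrast that the split by range itself fixes. For these 86 genes the mean was 39.5 ± 2.19% in rotenone and 37.7 ± 2.24% in DMSO livers (SD, n = 5 each).

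The steadiest genes of the set were ranks 26, 55, 87, 48 and 10, with ranges of 1.51-, 1.57-, 1.57-, 1.58- and 1.63-fold over 10 libraries. Rank 26, a gene of 3774 bp, had 156, 176, 147, 195 and 182 kilocounts in rotenone replicates 1 to 5, against 142, 195, 129, 137 and 145 kilocounts in DMSO replicates 1 to 5. Here too rotenone replicate 4 and DMSO replicate 2 were the highest of their groups. The 32 genes with a range under 2-fold took 9.46 ± 0.642% of counts in rotenone and 9.41 ± 0.895% in DMSO livers (SD, n = 5 each), and they included ranks 7, 10, 21 and 25 of the first 25.

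The heat map of log2 levels shows where the highest and lowest values of the 100 genes fell. Of the 100 genes, 42 had their highest value of all libraries in rotenone replicate 4, 30 in rotenone replicate 5 and 13 in DMSO replicate 2. The lowest value fell in DMSO replicate 3 for 38 genes and in DMSO replicate 4 for 33. Of the next 100 genes, 45 were highest in rotenone replicate 4, 17 in rotenone replicate 5 and 8 in DMSO replicate 2. The lowest value of these genes fell in DMSO replicate 3 for 59 and in DMSO replicate 4 for 14. Relative to each gene's own mean over libraries, the median log2 level of the 100 genes was −0.01, 0.08, −0.03, 0.45 and 0.27 in rotenone replicates 1 to 5, against −0.23, 0.29, −0.31, −0.25 and −0.21 in DMSO replicates 1 to 5. On this measure 4 of the 5 DMSO libraries lay below every rotenone library, and DMSO replicate 2 lay above all rotenone libraries but replicate 4. The libraries with the lowest TMM scaling factors were the 3 with the highest medians, rotenone replicates 4 and 5 (0.786 and 0.812) and DMSO replicate 2 (0.872). The 4 DMSO libraries with the lowest medians had the highest factors (1.13, 1.19, 1.14 and 1.08 in DMSO replicates 1, 3, 4 and 5). Rotenone replicates 1 to 3 lay between, at 1.02, 1.01 and 1.05. The order of these medians was thus largely the reverse of that of the TMM factors. A level is a count divided by a scaling factor (here DESeq2's), so the 2 orders are linked by calculation. The share of counts, which uses no such factor, was also highest in rotenone replicates 4 and 5 and DMSO replicate 2 (52.9, 51.6 and 49.9%). The part of library composition in these levels was not tested.

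**Figure D4:**
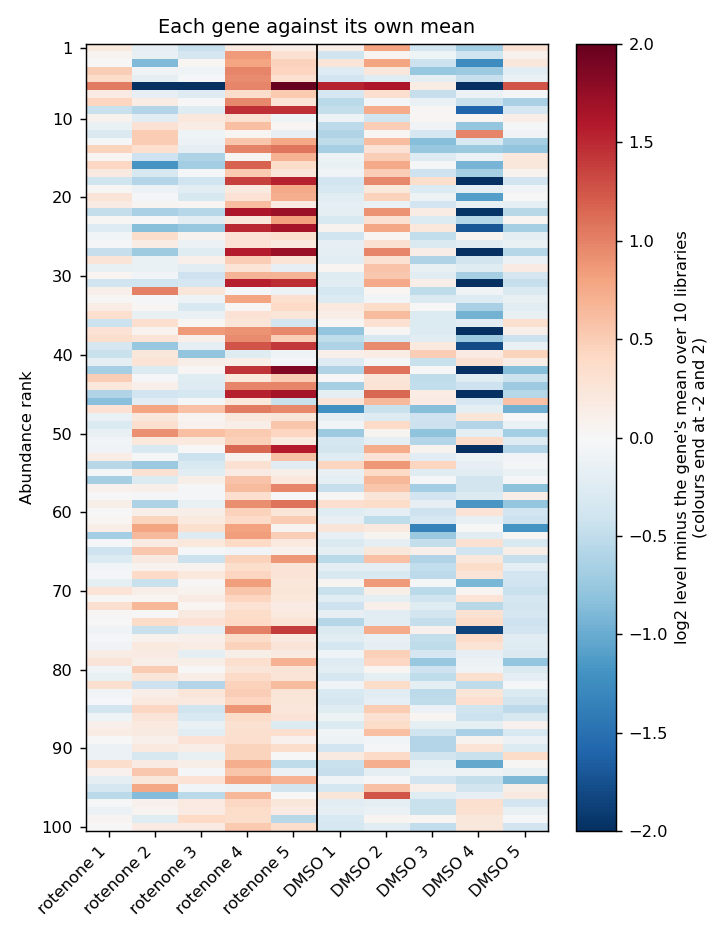
log2 normalized count minus the gene's mean over 10 libraries (colour, limited to −2 and 2) for the 100 genes by abundance rank (vertical axis) in 5 rotenone libraries (left) and 5 DMSO libraries (right of the line). Red prevails in rotenone replicates 4 and 5 and DMSO replicate 2, while DMSO replicate 4 holds deep blue rows in the upper ranks beside pale red ones.

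DMSO replicate 4 divided the set. Among the 5 DMSO libraries it was the lowest for 41 of the 100 genes and the highest for 26. Neither count was the largest of its kind alone, as DMSO replicate 3 was also the lowest for 41 and DMSO replicate 2 the highest for 66. The 41 genes lowest in DMSO replicate 4 had a median length of 2447 bp and a median range of 3.04-fold over all libraries. They held all 14 genes with a range of at least 5-fold. The 26 genes had a median length of 1432 bp, 18 of them under 2000 bp, and a median range of 1.90-fold. The 41 genes took 25.2, 19.8, 20.6, 31.1 and 31.0% of counts in rotenone replicates 1 to 5, against 25.8, 31.2, 25.5, 14.9 and 26.2% in DMSO replicates 1 to 5. The 26 genes took 5.90, 7.38, 6.96, 6.13 and 5.68% in rotenone replicates 1 to 5, against 5.28, 4.72, 5.28, 8.63 and 5.46% in DMSO replicates 1 to 5. Both classes were formed after the values were seen and carry no test.

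The comparison of rotenone with DMSO livers asks which of the most abundant transcripts differed with treatment. Counts were tested with edgeR over all 16922 genes that passed the count filter, all 100 members among them, and p-values were adjusted over all genes tested. A gene was called at an adjusted p under 0.05. Of the 100 genes, 1 was called higher in rotenone and 0 lower, where the background over all genes tested was 0.295% called higher and 0.148% called lower. At an adjusted p under 0.1, 5 were higher and 0 lower, against a background of 2.87% and 2.61%. At an unadjusted p under 0.05, 25 of the 100 were higher and 2 lower, against a background of 11.1% higher and 11.2% lower. With library size as the only scaling these counts were 12 higher and 5 lower, against a background of 4.03% and 17.2%. By limma on log2(RPKM + 1) they were 11 higher and 5 lower with own totals (background 3.35% and 17.1%). They were 4 higher and 5 lower with the deposited RPKM (background 1.32% and 19.6%). The deposited RPKM used column totals cycled down the genes, so that fit is not a valid scaling. DESeq2 called 11 higher and 0 lower, against a background of 4.77% and 4.36%.

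The called gene was rank 47 (Nfu_g_1_007038, 921 bp), which rose in rotenone livers. It had 108, 153, 134, 183 and 173 kilocounts in rotenone replicates 1 to 5, against 38.4, 65.3, 49.4, 78.3 and 45.8 kilocounts in DMSO replicates 1 to 5. The lowest rotenone library lay well above the highest DMSO library, and the 2 groups did not overlap. The means were 150 ± 30.1 kilocounts in rotenone and 55.4 ± 16.1 kilocounts in DMSO livers (SD, n = 5 each), a 2.71-fold difference. The log2 fold change was 1.44 (SE 0.24, edgeR adjusted p = 0.0325).

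The call of rank 47 lay close to the threshold, although its direction did not change. With any 1 library left out, its unadjusted edgeR p was at most 0.000353. The call was lost without any of rotenone replicates 2, 3, 4 and 5 (edgeR adjusted p = 0.0690, 0.0535, 0.0769 and 0.0756). It was also lost without DMSO replicates 1, 3 and 5 (edgeR adjusted p = 0.0774, 0.0774 and 0.118). On log2(RPKM + 1) with own totals, a scale that leaves out the TMM factor, it had a log2 difference of 1.25 (limma adjusted p = 0.0537). With the deposited RPKM it was not called either (limma adjusted p = 0.0959 with + 1 and 0.0753 with + 0.1). Library size as the only scaling also leaves out TMM, and there edgeR kept the call (adjusted p = 0.0464). DESeq2 (adjusted p = 5.55e-07) and limma voom (adjusted p = 0.0295) called it too. The log2 fold change was between 1.16 and 1.60 in all settings run.

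Rank 38 (Nfu_g_1_016129, 4450 bp) came next by p-value. It had 151, 142, 127, 228 and 166 kilocounts in rotenone replicates 1 to 5, against 82.6, 94.4, 101.5, 71.9 and 87.6 kilocounts in DMSO replicates 1 to 5. The groups did not overlap, and the log2 fold change was 0.89 (SE 0.20, edgeR adjusted p = 0.0623). DESeq2 gave an adjusted p of 0.000273, and edgeR gave 0.0376 without DMSO replicate 2.

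Ranks 61, 50 and 14 completed the 5 higher genes of lowest p. Rank 61 had a tight DMSO group, with 98.5 ± 12.9 kilocounts in rotenone and 63.4 ± 7.07 kilocounts in DMSO livers (SD, n = 5 each), with log2 fold change 0.64 (SE 0.16, edgeR adjusted p = 0.0825). Rank 50 averaged 124 ± 31.0 kilocounts in rotenone and 65.5 ± 18.1 kilocounts in DMSO livers, with log2 fold change 0.93 (SE 0.24, edgeR adjusted p = 0.0855). In rank 14 the means were 316 ± 108 kilocounts in rotenone and 151 ± 58.5 kilocounts in DMSO livers, with DMSO replicate 2 (255 kilocounts) inside the rotenone range. Its log2 fold change was 1.07 (SE 0.30, edgeR adjusted p = 0.0954).

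Without DMSO replicate 2, edgeR called 7 of the 100 genes higher (ranks 13, 14, 38, 47, 50, 57 and 72) and 0 lower, against a background of 2.07% and 3.34% in that fit. With each of the other 9 libraries left out in turn, 0 or 1 of the 100 was called higher. The share of all genes called was not computed for these 9 fits. Without DMSO replicate 2 the background called higher also rose, from 0.295% with all libraries to 2.07%. The rise to 7 therefore cannot be read as particular to the 100 genes. Every rotenone library lay above every DMSO library for 5 genes, ranks 8, 21, 38, 47 and 61, where the background of genes without overlap was 3.13% higher and 1.71% lower. No gene of the 100 lay wholly below.

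Lower values in rotenone livers were few, and none passed the adjusted threshold. Rank 54 (Nfu_g_1_006434, 1088 bp) had 58.4, 51.2, 69.7, 106 and 73.2 kilocounts in rotenone replicates 1 to 5, against 116, 156, 115, 76.8 and 84.7 kilocounts in DMSO replicates 1 to 5. Rotenone replicate 4 lay inside the DMSO range, and the log2 fold change was −0.61 (SE 0.25, edgeR adjusted p = 0.191). Rank 40 (Nfu_g_1_007235, 6692 bp) averaged 98.2 ± 25.7 kilocounts in rotenone and 140 ± 18.3 kilocounts in DMSO livers (SD, n = 5 each), with log2 fold change −0.51 (SE 0.21, edgeR adjusted p = 0.185). Ranks 46, 96 and 29 followed by p-value, with log2 fold changes of −0.52, −0.52 and −0.17 and edgeR adjusted p-values of 0.234, 0.412 and 0.638. All 3 were highest in DMSO replicate 2, with 156, 117 and 218 kilocounts.

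Across the set, small positive differences prevailed. The log2 fold change was above 0 for 87 of the 100 genes, where the background was 50.3%, and its median was 0.35 (quartiles 0.16 and 0.58), against 0.00 over all genes tested. By blocks of 25 genes the median was 0.34, 0.38, 0.37 and 0.31 from the upper to the lower ranks. The next 100 genes had a median of 0.36 with 85 of 100 above 0. It was 0.27 for the 300 genes after those, 0.07 for the following 500 and 0.00 for the following 3998 genes tested. With 1 library left out, the count of higher genes at an unadjusted p under 0.05 ran from 11 to 35, against 25 with all libraries. It was 11 without rotenone replicate 4 (background 8.74%), and 13, 12 and 12 without DMSO replicates 1, 3 and 5 (background 8.50%, 9.19% and 7.998%). It was 28 without rotenone replicate 1 (background 10.6%), and 33 and 35 without DMSO replicates 2 and 4 (background 12.5% in both).

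**Figure D5:**
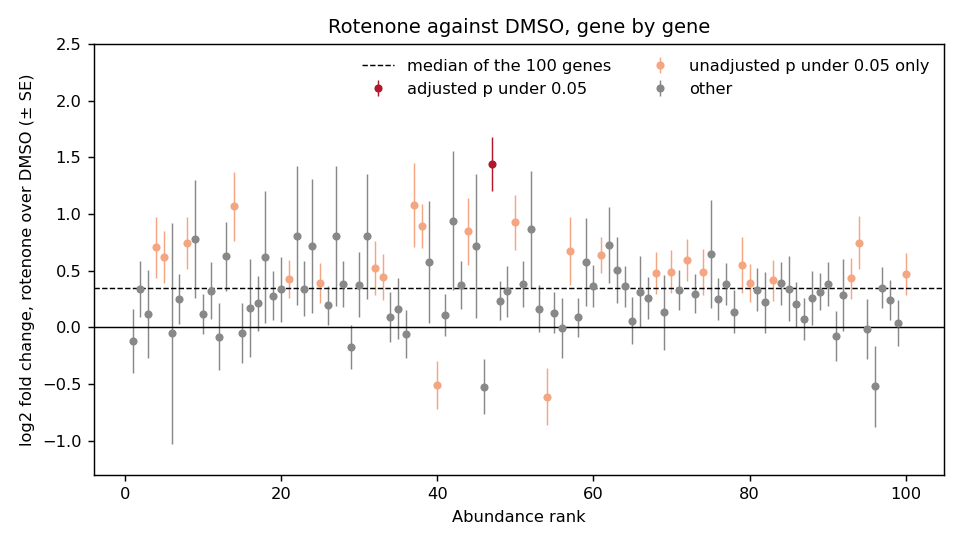
log2 fold change of rotenone over DMSO (vertical axis, bars are the approximate SE) for the 100 genes by abundance rank. The dark red point is rank 47, called at an adjusted p under 0.05, light orange points are the 26 genes at an unadjusted p under 0.05 only, and the dashed line is the median of 0.35.

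How libraries were scaled moved the whole set. With library size as the only scaling the median log2 fold change of the 100 genes was 0.14 and that of all genes −0.20, and 70 genes were above 0. The difference between the 2 medians, 0.34, was the same as with TMM (0.34). A change of scaling moves the log2 fold changes of all genes by nearly the same amount. This agreement was therefore fixed in advance and tests nothing. With TMM factors computed from the other genes alone the median of the 100 genes was 0.34, against 0.35 with TMM over all genes tested. On log2(RPKM + 1) with own totals it was 0.16, with 71 genes above 0 and a median of all genes of −0.12. With the deposited RPKM it was 0.00, with 51 above 0 and a median of all genes of −0.20. The deposited RPKM used column totals cycled down the genes, so that fit is not a valid scaling. With TMM the median of the 100 genes was 0.28 without rotenone replicate 4 and 0.42 without DMSO replicate 2. It lay between these values with each other library left out.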

How the data were processed

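The 10 liver libraries were made with a TruSeq RNA kit, per the labels' protocols. Tools listed in the submitters' processing notes are STAR 2.4.1d, featureCounts 1.4.6-p4 and bcl2fastq 1.8.4. The sources used here give no build, annotation or strand setting, and genes that overlap or resemble each other closely may have split reads. The authors deposited raw read counts per gene, read as such from the values, and RPKM. The deposited RPKM used column totals cycled down the genes (median CV of the implied gene length 3.49e-05, against 0.153 with own totals), so RPKM was recomputed.

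Normalized counts are counts divided by DESeq2 median-of-ratios size factors. Tests used edgeR 4.0.16 in R 4.3.3 (quasi-likelihood, TMM, filterByExpr, no covariates, Benjamini-Hochberg). The fit was also run on simulated counts drawn independently for each gene. Shifts that many genes share within a library were not simulated, so that run says nothing about them. Each SE is approximate (fold change over the root of F). Alternatives used DESeq2 1.42.0 and limma 3.58.1. Groups came from the labels. Replicate numbers follow accession order and pair nothing, and no batch is labelled. The members and tests were chosen with earlier results of these data known. Named were the 10 highest genes, those called, the 5 widest and 5 narrowest ranges, and the 5 lowest p in each direction. Genes outside this rule, such as those in classes by range or by DMSO replicate 4, were chosen after their values were seen.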

Additional observations from a re-analysis of the deposited data

Results flagged for a closer look

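In 72 groups of 5 values, 6 had a library at an end that stood apart from the rest by Dixon's ratio (critical value 0.71). Chance marks about 1 in 20 groups. In 4 of the 6 the library was DMSO replicate 2, at the upper end: rank 14 with 255 kilocounts (units of 1000 normalized counts) (ratio 0.915), rank 26 with 195 kilocounts (0.762), rank 55 with 116 kilocounts (0.861) and rank 96 with 117 kilocounts (0.778). Rank 29 stood apart in rotenone replicate 4, with 177 kilocounts (0.828). The share of counts held by the 100 genes after these 100 stood apart in DMSO replicate 4, at 12.2% (0.782).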

How the results depend on the processing

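With all libraries, edgeR called 1 of the 100 genes higher in rotenone and 0 lower. The higher count was 11 with DESeq2 (background 4.77%) and 5 at an adjusted p under 0.1 (background 2.87%). It was 2 over 200 genes (background 0.295%). It was 0 with limma on log2(RPKM + 1) and log2(RPKM + 0.1) of the deposited RPKM, which used column totals cycled down the genes. It was also 0 on log2(RPKM + 1) with own totals, an alternative chosen after seeing the data. The share of all genes called was not computed for these 3 RPKM fits, so their 0 cannot be set against a background. With 1 library left out the higher count ran from 0 to 7, the 7 being without DMSO replicate 2 (background 2.07%). The share of all genes called without each other library was not computed. The cause of the range from 0 to 7 was not tested. The lower count was 0 in all 26 alternatives. At an unadjusted p under 0.05, 2 genes were lower by edgeR (background 11.2%) and 5 with library size only (background 17.2%). In each of the 3 RPKM fits 5 were lower (background 17.1% with own totals and 19.6% for the deposited RPKM + 1). By DESeq2 and by limma voom 3 were lower, and 0 to 4 with 1 library left out, where the background was not computed. The median range of 2.35-fold was 1.95-fold with library size only and 2.14- to 2.35-fold with 1 library left out. The difference in share of ranks 1 to 10 was −0.172 points with the genes ranked by their DMSO mean. No paired analysis was run because nothing in the labels pairs a rotenone library with a DMSO library. The lowest count of a gene in a library was 11282.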

Other observations

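The gene ranking 148, just outside the 100 and chosen after its values were seen, was abundant in a single library. Its normalized count was 9728, 3, 366648, 8 and 449 in rotenone replicates 1 to 5, against 502, 56, 0, 186 and 4 in DMSO replicates 1 to 5. In rotenone replicate 3 it was the gene of place 7 and took 1.10% of counts. The edgeR adjusted p was 0.123, and the other 9 libraries lay at 9728 or below.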
